A study of Mus musculus with 40 samples.

Results

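Of the 40 CT26 tumors sequenced in the study, 10 answer what anti-PD-1 adds to a mAb against GARP:TGF-β1. They are the 5 mice tagged anti-GARP:TGFb WT + anti-PD1 FcS (here the combination) and the 5 mice tagged anti-GARP:TGFb WT (here the mAb alone), chosen by that tag and compared across all genes. CT26 is a colon carcinoma line of BALB/c mice. All mice received 1000000 CT26 cells under the skin at 6 to 12 weeks of age, intraperitoneal mAbs on days 6, 9 and 12, and gave a tumor fragment on day 13. The anti-GARP:TGF-β1 mAb is clone 58A2 as a mouse IgG2a with a functional Fc (WT), and all 10 mice received it. The combination added anti-PD-1 with a silent Fc (FcS), so that the mAb alone is the control and isotype control tumors (motavizumab, 5 mice) serve as background. RNA came from whole tumor fragments with the tumor, stromal and blood cells they held, so that fewer cells of a type and less RNA per cell cannot be told apart.

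GARP, encoded by Lrrc32, holds latent TGF-β1 on the surface of regulatory T cells, and blocking mAbs keep the active cytokine from being released there. PD-1, encoded by Pdcd1, is an inhibitory receptor of activated T cells that binds PD-L1, encoded by Cd274, on tumor and myeloid cells. Activated T cells and NK cells kill through perforin and granzymes and secrete IFNγ and TNFα. IFNγ acts through JAK and STAT proteins to switch on guanylate-binding proteins, PD-L1 and antigen presentation genes in its targets, and type I interferons act through a related pathway on antiviral genes.

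In the tumors treated with both mAbs, granzyme B, PD-L1, TNFα, inducible nitric oxide synthase and a broad set of interferon-response genes were higher than with anti-GARP:TGF-β1 WT alone, in 5 of 5 mice for many of them, while T cell genes overlapped between the groups. No gene passed edgeR's quasi-likelihood test at an adjusted p of 0.05 among 14760 genes tested (0%). The smallest adjusted p was 0.0963, and 1637 genes had an adjusted p under 0.1. At an unadjusted p of 0.05, 2443 genes were higher in the combination (16.6%) and 1918 were lower (13%). In 404 genes (2.74%) all 5 combination mice lay above all 5 mice on the mAb alone, and in 430 genes (2.91%) all 5 lay below. These percentages are the background against which the counts in gene lists are read. The median log2 fold change of all genes was 0.018.

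Library totals of the 10 mice ran from 12841734 to 20680548 counts. As a check for a library deposited more than once, the 20 pairs of replicates were compared, and no pair agreed within counting noise (chi-square per degree of freedom at least 8.89). Mice are called here by their library number. The number of genes that passed depended on single tumors. Mouse 77 of the combination stood apart, at 99.7 on the first principal component of log2 CPM (normalised read counts scaled to library size), where the other 9 mice ran from -45.4 to 38.1. Its Ptprc, the gene of the leukocyte antigen CD45, was at 782 CPM against at most 248 CPM in the others of its group. Without mouse 77 no gene passed the adjusted threshold either, and 1089 genes (7.33%) were higher and 1160 (7.8%) lower at an unadjusted p of 0.05. Without mouse 73 of the mAb alone these counts were 1553 and 1064, again with none past the adjusted threshold and with a smallest adjusted p of 0.257 in edgeR. Without mouse 55 of the combination, 1135 genes (7.59%) were higher and 572 (3.83%) lower at an adjusted p of 0.05 in edgeR. DESeq2's Wald test, fitted to all 40 mice at the same threshold, called 400 genes higher (3.36%) and 219 lower (1.84%). Libraries 41 to 60 held Ddx3y, a Y-linked gene, and almost no Xist, whereas libraries 61 to 80 held Xist and no Ddx3y. The mAb alone had 3 mice in the first set and 2 in the second, and the combination had 2 and 3. Results within each set are therefore given for many of the lists and for some genes, and the part of the set in them was not tested except where stated.

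In the list of cytotoxic effector molecules, 7 of 18 tested genes were higher at an unadjusted p of 0.05 and 0 were lower, with a median log2 fold change of 0.897. Which cells of the fragments held these transcripts was not tested. Gzmb, which encodes the protease granzyme B that perforin delivers into target cells, read 47.6, 64.8, 62.2, 48.3 and 49.7 CPM in mice 42, 49, 56, 65 and 73 on the mAb alone. In the combination mice 45, 55, 64, 69 and 77 it read 112, 86.7, 143, 151 and 290.3 CPM, in the same order that is used for all genes below. All 5 combination mice were above all 5 others, with mouse 55 the lowest and mouse 77 the highest. The level was 2.87-fold higher, the log2 fold change was 1.52 ± 0.40 (SE), edgeR's adjusted p was 0.0963, and without mouse 77 the log2 fold change was 1.17. Isotype control tumors had 59.7 ± 18.9 CPM (SD, n = 5).

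Tnf, the gene of the inflammatory cytokine TNFα, read 8.23, 9.99, 9.33, 7.57 and 6.42 CPM with the mAb alone and 14.2, 11.2, 16.8, 12.6 and 24.8 CPM with the combination. The groups did not overlap, and the log2 fold change was 0.93 ± 0.34 (SE), or 0.71 without mouse 77. Srgn, the proteoglycan core on which granules pack granzymes, did not overlap either, at 66.98, 74.1, 80.6, 68.2 and 82.1 CPM against 117, 84.1, 132, 106 and 250.0 CPM and a log2 fold change of 0.89 ± 0.27 (SE). Ifng, the gene of IFNγ, was sparse, at 1.57, 1.79, 1.45, 1.47 and 0.751 CPM against 2.99, 2.21, 2.85, 1.75 and 5.67 CPM. Mouse 69 lay inside the range of the mAb alone, the log2 fold change was 1.12 ± 0.47 (SE) and edgeR's adjusted p was 0.121. Prf1, the gene of perforin, overlapped between the groups. It read 36.9, 61.9, 41.7, 42.2 and 34.05 CPM against 54.2, 36.9, 71.5, 84.2 and 159 CPM, with a log2 fold change of 0.901 ± 0.39 (SE), which was 0.51 without mouse 77 and -0.04 within libraries 41 to 60. Tnfsf10, the gene of the death ligand TRAIL, was 0.68 ± 0.30 (SE) higher on the log2 scale with overlapping groups. Without mouse 77, 3 of the 18 effector genes had an unadjusted p under 0.05, and the median was 0.53. Within libraries 41 to 60 alone, 0 of the 18 did, with a median of 0.45.

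**Figure D1:**
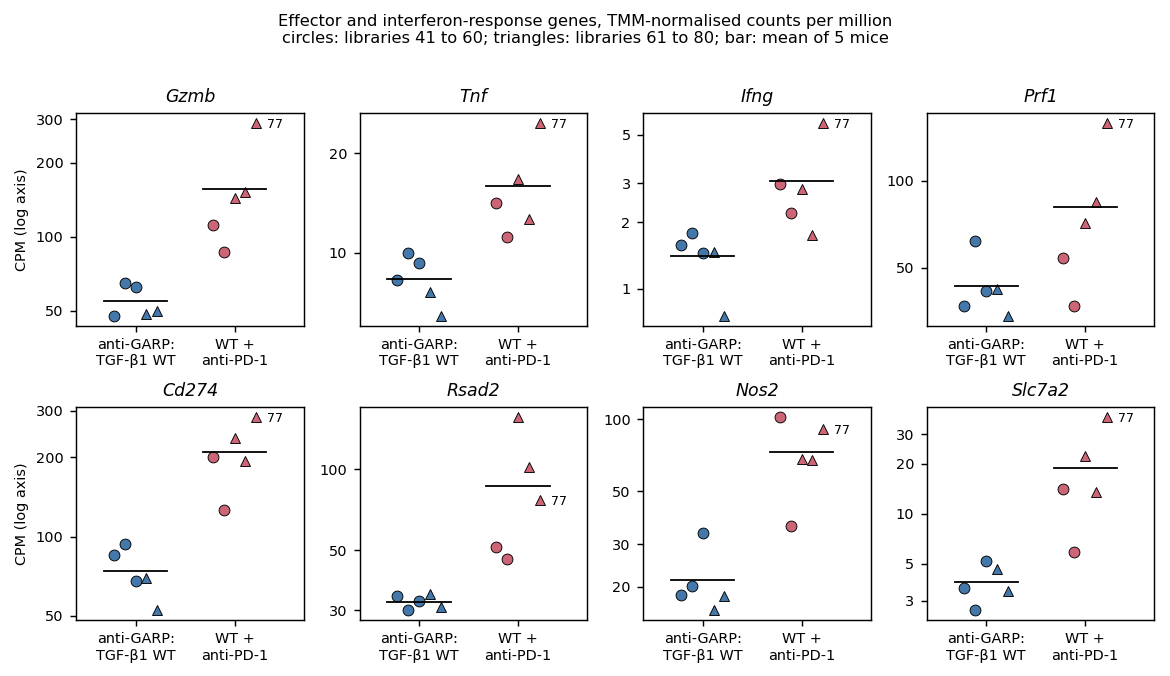
Level of 8 genes in each mouse, in TMM-normalised CPM on a log axis (blue, anti-GARP:TGF-β1 WT; red, WT + anti-PD-1; circles, libraries 41 to 60; triangles, libraries 61 to 80; bar, mean of 5 mice). The groups separate for Gzmb, Tnf, Cd274, Rsad2, Nos2 and Slc7a2, and overlap for Ifng and Prf1; mouse 77 is marked.

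In the interferon-γ response list the number of higher genes was the same with and without mouse 77. Of 38 tested genes of the list, 17 were higher and 0 lower at an unadjusted p of 0.05, and 16 had all 5 combination mice above all 5 others. The median log2 fold change was 0.58, and 0.59 without mouse 77, when 17 genes again passed. Within libraries 41 to 60 alone, 1 of the 38 was higher. The guanylate-binding proteins, GTPases that attack vacuoles of intracellular pathogens, made up much of the list. Gbp9 read 101, 92.9, 68.4, 72.4 and 39.3 CPM against 119, 119.7, 147, 126 and 139 CPM, Gbp10 15.8, 17.2, 9.08, 8.58 and 4.17 CPM against 23.99, 21.5, 30.9, 26.1 and 26.7 CPM, and neither overlapped. Their log2 fold changes were 0.797 ± 0.30 and 1.23 ± 0.47 (SE). In both genes mouse 73 was the lowest of all mice, and mouse 77 was inside the range of its group.

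Nos2, which encodes the inducible nitric oxide synthase of activated macrophages, had the smallest p of the list. It read 18.5, 20.1, 33.4, 16 and 18.4 CPM with the mAb alone and 102, 35.7, 68.1, 67.6 and 91.01 CPM with the combination. Mouse 56 was the highest of its group and mouse 55 the lowest of the combination, yet the groups did not overlap, with a log2 fold change of 1.77 ± 0.55 (SE) and 1.68 without mouse 77. Isotype tumors had 19.4 ± 10.8 CPM (SD, n = 5). The kinases Jak1 and Jak2, which carry the signal from the interferon receptors, differed by 0.56 ± 0.18 and 0.34 ± 0.12 (SE) on the log2 scale, and only Jak2 did not overlap. Irf8, a transcription factor of myeloid cells, differed by 0.79 ± 0.25 (SE) and overlapped. Stat2, part of the factor that type I interferon activates, was higher in 5 of 5 mice by 0.54 ± 0.22 (SE). The receptor chains Ifngr1 and Ifngr2 did not pass, nor did the T cell-attracting chemokines Cxcl9 and Cxcl10, with log2 fold changes of 0.28 ± 0.39 and 0.22 ± 0.23 (SE). Ido1, a tryptophan-degrading enzyme, had all 5 combination mice above all 5 others yet an unadjusted p of 0.259 in edgeR. Tgtp1 and Tgtp2 are near-identical copies, as are Ifit3 and Ifit3b, and their values are uncertain.

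Of 34 type I interferon antiviral genes, 17 were higher and 0 lower at an unadjusted p of 0.05, 6 without overlap, with a median of 0.36 and of 0.38 without mouse 77, when 18 passed. Of the 34, 0 passed within libraries 41 to 60 alone, with a median of 0.19. Rsad2 (ENSMUSG00000020641), which encodes the antiviral enzyme viperin, had the smallest p. It read 33.8, 30.03, 32.3, 34.5 and 30.8 CPM with the mAb alone and 51.3, 46.4, 157, 102 and 77 CPM with the combination. The 5 mice on the mAb alone lay close together, mice 45 and 55 were lowest in the combination, and mouse 64 was highest. The log2 fold change was 1.43 ± 0.34 (SE), edgeR's adjusted p 0.0963, and isotype tumors had 36.6 ± 7.93 CPM (SD, n = 5). Ifi44 and Parp14, both interferon-induced, were higher without overlap by 0.74 ± 0.23 and 0.897 ± 0.28 (SE). Mx1, a GTPase that blocks virus replication, and Ifit2 and Ifit1, which bind viral RNA, overlapped at one or more mice, with log2 fold changes of 0.78 ± 0.25, 0.83 ± 0.27 and 0.55 ± 0.18 (SE). Isg15, a ubiquitin-like modifier, and Usp18, which removes it, did not pass, at 0.28 ± 0.16 and 0.16 ± 0.16 (SE).

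To show the sequence in front of genes that separated the groups, the 300 bases around the RefSeq start site (GRCm38.p6) are printed for Rsad2, Gzmb and Cd274, an antiviral, an effector and a checkpoint gene. Capitals mark a match, on either strand, to the core of an interferon-stimulated response element (ISRE, here GAAA, any 2 bases, GAAA) or of a STAT-binding GAS element (TTCNNNGAA). No printed match to one motif overlaps a match to the other.
Rsad2, chr12:26456403-26456702, minus strand, around the start of the viperin gene and mostly upstream of it: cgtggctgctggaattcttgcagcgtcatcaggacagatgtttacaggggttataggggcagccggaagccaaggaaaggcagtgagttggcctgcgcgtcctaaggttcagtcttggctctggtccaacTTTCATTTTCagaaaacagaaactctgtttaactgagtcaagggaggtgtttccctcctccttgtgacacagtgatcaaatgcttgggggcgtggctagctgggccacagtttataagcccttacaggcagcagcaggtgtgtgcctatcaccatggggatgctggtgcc
Gzmb (ENSMUSG00000015437), chr14:56262285-56262584, minus strand: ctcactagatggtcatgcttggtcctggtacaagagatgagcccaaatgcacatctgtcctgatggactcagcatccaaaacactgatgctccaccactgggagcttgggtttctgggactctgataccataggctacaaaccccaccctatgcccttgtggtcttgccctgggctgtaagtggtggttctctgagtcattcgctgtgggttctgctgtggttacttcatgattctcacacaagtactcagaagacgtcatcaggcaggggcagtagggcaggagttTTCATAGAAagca
Cd274 (ENSMUSG00000016496), chr19:29367188-29367487, plus strand: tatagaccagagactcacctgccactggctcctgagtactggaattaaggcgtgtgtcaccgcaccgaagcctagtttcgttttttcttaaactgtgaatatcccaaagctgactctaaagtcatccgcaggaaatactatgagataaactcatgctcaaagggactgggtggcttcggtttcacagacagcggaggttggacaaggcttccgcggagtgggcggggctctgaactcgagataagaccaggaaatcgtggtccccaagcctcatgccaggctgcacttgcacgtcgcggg
The Rsad2 window held 1 ISRE match, on the opposite strand and before the start site, the Gzmb window held 1 GAS match, after the RefSeq start site, and the Cd274 window held neither. The GENCODE annotation starts Gzmb at 56262260, so that the whole Gzmb window lies upstream of the gene by that annotation. Of all 27025 genes with a promoter window in the reference table, 3.99% held the ISRE core and 9.55% the GAS core in at least 1 window. By window, the shares were 3.44% and 8.3% of 32851. Of the type I interferon antiviral genes, 26 of the 35 had a window, and 13 of the 26 held the ISRE core and 8 the GAS core. Of the 39 interferon-γ response genes, 23 had a window, and 14 of the 23 held the ISRE core and 10 the GAS core. A match describes these letters and is no evidence of binding.

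The genes of both PD-1 ligands were higher with the combination, and those of PD-1, GARP and TGF-β1 themselves overlapped between the groups. Cd274, which encodes PD-L1, read 85.3, 93.5, 67.6, 69.6 and 52.6 CPM with the mAb alone and 201, 126, 236, 194 and 285 CPM with the combination. All 5 combination mice were above all others, with mouse 55 closest. The level was 2.82-fold higher, a log2 fold change of 1.498 ± 0.41 (SE), with edgeR's adjusted p at 0.0963, and it was 1.36 without mouse 77, 0.99 within libraries 41 to 60 and 1.96 within libraries 61 to 80. Isotype tumors had 83.9 ± 27.96 CPM (SD, n = 5). Pdcd1lg2, the gene of the second ligand PD-L2, read 2.17, 2.404, 7.63, 3.01 and 2.92 CPM against 13.4, 6.37, 16.1, 10.2 and 20.6 CPM, where mouse 56 lay above mouse 55, and its log2 fold change was 1.87 ± 0.67 (SE).

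Pdcd1 itself read 11.2, 21.1, 12.7, 7.19 and 4.42 CPM against 6.42, 3.24, 11, 4.97 and 46.3 CPM. Mouse 77 was the highest of the 10, and the other 4 combination mice were below the 2 highest mice on the mAb alone. The log2 fold change was 0.34 ± 0.60 (SE) with mouse 77 and -0.83 without it. Lrrc32, the gene of GARP, read 9.28, 3.16, 3.66, 4.096 and 4.67 CPM against 3.43, 2.36, 6.51, 4.82 and 13.8 CPM and Tgfb1 87.6, 92.3, 89.5, 93.2 and 109 CPM against 86.5, 66.5, 112, 91.2 and 189.7 CPM. Both overlapped widely, with log2 fold changes of 0.32 ± 0.44 and 0.21 ± 0.16 (SE), and -0.21 and -0.08 without mouse 77. Foxp3, the transcription factor that defines regulatory T cells, read 3.74, 0.754, 1.01, 1.08 and 1.33 CPM against 1.68, 0.719, 2.21, 2.56 and 2.24 CPM and differed by 0.25 ± 0.46 (SE). Of the other receptors that restrain T cells, Havcr2 (TIM-3), Cd244, Vsir (VISTA), Entpd1 (CD39) and Ctla4 had unadjusted p values under 0.05 and overlapping groups. In all, 7 of 16 tested genes of the inhibitory list were higher and 0 lower, and the median of 0.78 was 0.11 without mouse 77, when 2 passed. The median was -0.25 within libraries 41 to 60, with 0 higher and 1 lower, and within libraries 61 to 80 it was 1.68.

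In the regulatory T cell list, 5 of 13 genes were higher and 0 lower, and 2 were higher without mouse 77. The 5 were Il2ra, the high-affinity chain of the IL-2 receptor, by 1.39 ± 0.40 (SE), Il1rl1, the IL-33 receptor, by 0.503 ± 0.18 (SE), Ctla4 by 1.82 ± 0.69 (SE), and the transcription factors Ikzf2 and Ikzf4 by 0.804 ± 0.38 and 0.92 ± 0.44 (SE). Activated conventional T cells also express Il2ra and Ctla4. Il1rl1 was the only one of the 13 whose groups did not overlap, at 292, 336, 425, 426 and 403 CPM against 592, 497, 502, 637 and 439.9 CPM. It made up most of the summed level of the list, which ran from 374.8 to 518.8 CPM against 585.3 to 780.4 CPM. Mouse 77 was the lowest of the combination in Il1rl1 and the highest in the summed level of T cell identity genes. Which cells of the fragments held Il1rl1 was not tested. In the list of IL-2, IL-7 and IL-15, cytokines that keep T cells and NK cells alive, 6 of 15 genes were higher and 1 lower, against 3 and 0 without mouse 77, when the median went from 0.38 to 0.14. Il7r, the IL-7 receptor chain of memory T cells, read 5.76, 6.32, 7.12, 4.48 and 3.17 CPM against 15.7, 8.32, 22.9, 19.9 and 50.2 CPM. It did not overlap, and mice 55 and 77 were the lowest and the highest of the combination, with a log2 fold change of 2.11 ± 0.60 (SE). Icos, a costimulatory receptor of activated T cells, differed by 2.22 ± 0.67 (SE), with mouse 55 at 0.308 CPM and mouse 77 at 6.1 CPM, and 4 of 15 genes of the costimulatory list were higher and 1 lower, or 2 and 0 without mouse 77.

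T cell genes as a whole did not separate the groups. Cd3e, a chain of the T cell receptor complex, read 10.5, 13.7, 9.14, 5.87 and 2.67 CPM with the mAb alone and 5.98, 2.83, 8.29, 5.41 and 36.7 CPM with the combination. Mouse 77 was at the top of all 10, and 4 of the 5 combination mice were below the 3 highest mice on the mAb alone. Cd8a, which marks killer T cells, read 15.9, 28.5, 21.8, 11.8 and 4.76 CPM against 11.6, 8.17, 22.8, 10.2 and 79.7 CPM and Cd4 5.09, 2.17, 1.89, 1.78 and 2.25 CPM against 2.77, 1.39, 5.63, 3.14 and 7.03 CPM. The log2 fold changes were 0.49 ± 0.56, 0.67 ± 0.64 and 0.601 ± 0.44 (SE) in that order, and -0.59, -0.34 and 0.29 without mouse 77. Of the 20 T cell identity genes 2 were higher, among them Thy1, and 0 lower, and the median went from 0.64 to -0.28 without mouse 77, when 0 passed. The summed level of the 20 genes ran from 92.4 to 231 CPM with the mAb alone and from 97.1 to 720.5 CPM with the combination, where the highest mouse other than 77 reached 226 CPM. NK cell genes behaved alike, with 2 of 12 higher, and 0 without mouse 77, a median of 0.63, and 0.09 without mouse 77.

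**Figure D2:**
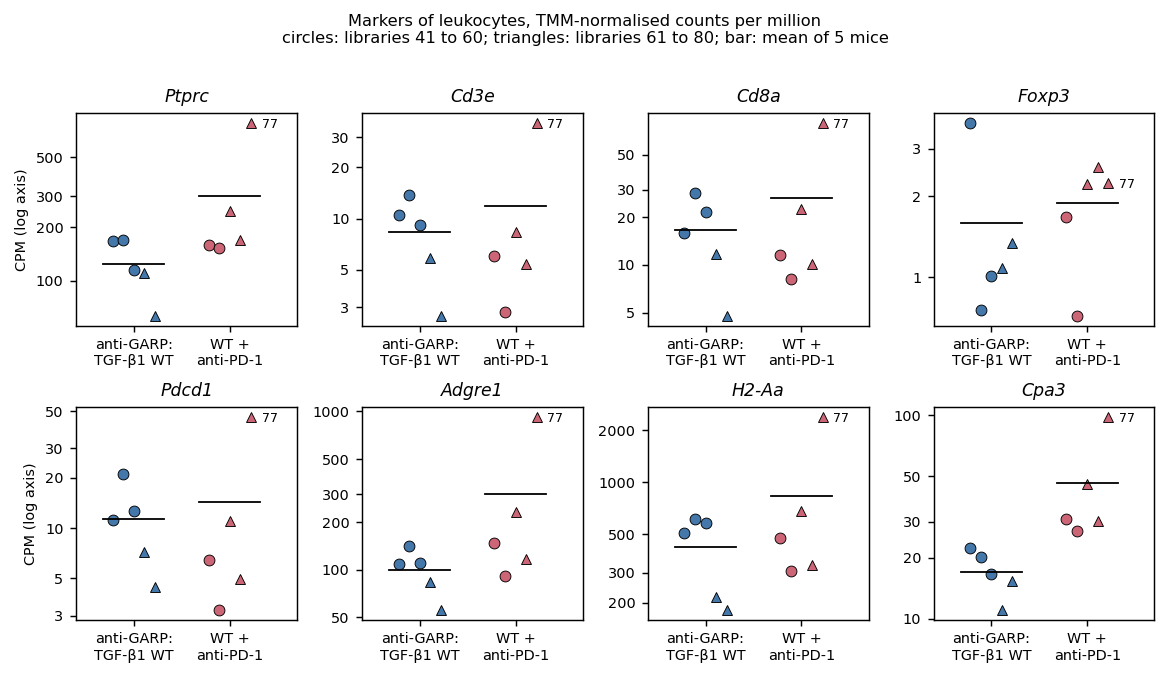
Level of 8 leukocyte markers in each mouse, in TMM-normalised CPM on a log axis (blue, anti-GARP:TGF-β1 WT; red, WT + anti-PD-1; circles, libraries 41 to 60; triangles, libraries 61 to 80; bar, mean of 5 mice). Mouse 77 is the highest in Ptprc, Cd3e, Cd8a, Pdcd1, Adgre1, H2-Aa and Cpa3, and the groups separate only for the mast cell gene Cpa3.

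Of the macrophage, Fc receptor and antigen-presentation lists, those of macrophages (9 of 20) and Fc receptors (5 of 8) held a larger share of higher genes than the 16.6% of all genes tested, MHC class II (3 of 13) was near that share, and MHC class I (1 of 21) was under it. Ptprc read 167, 169, 114, 110.0 and 63 CPM against 158, 152, 248, 169.8 and 782 CPM, and its log2 fold change of 1.28 ± 0.42 (SE) was 0.55 without mouse 77. Adgre1, the macrophage antigen F4/80, read 109, 142, 109.9, 83.1 and 55.6 CPM against 147, 91.4, 233, 116 and 925 CPM, and differed by 1.598 ± 0.52 (SE), or 0.55 without mouse 77. Of 20 macrophage genes 9 were higher and 0 lower, and 2 without mouse 77. H2-Aa, a chain of MHC class II, read 507, 615, 578, 217 and 182 CPM against 473, 308, 679, 333 and 2390 CPM, and 3 of 13 class II genes were higher (Ctss, Ciita and H2-Ea-ps), with 0 past the threshold without mouse 77. Of 8 genes of Fc receptors for IgG and their partners, 5 were higher, among them Syk by 1.35 ± 0.39, Fcer1g by 0.904 ± 0.31 and Fcgr4 by 1.303 ± 0.49 (SE), and 0 passed without mouse 77. Of 19 complement genes 8 were higher, and 2 without mouse 77. Of 14 dendritic cell genes 3 were higher (Clec9a, Xcr1 and Batf3), near the share of all genes, and 1 was lower, and 0 passed without mouse 77. Their median log2 fold change was 0.39, or 0.09 without mouse 77. Their summed level, in which abundant members weigh most, ran from 336 to 397 CPM with the mAb alone and from 301 to 363 CPM with the combination. The 1 higher gene of MHC class I was the peptidase Erap1, by 0.41 ± 0.15 (SE) without overlap.

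Of all lists, mast cell genes had the largest share of higher genes with all 5 combination mice, though not without mouse 77, when the shares were larger for type I interferon (18 of 34) and interferon-γ response genes (17 of 38). Of 11 tested genes 8 were higher and 1, Gata2, was lower at an unadjusted p of 0.05, 6 had no overlap, and the median was 1.195. Cpa3, a granule carboxypeptidase, read 22.1, 20.1, 16.5, 11.1 and 15.3 CPM with the mAb alone and 31.1, 26.96, 45.9, 30.1 and 98.2 CPM with the combination. Cma1, a chymase, read 19.2, 16.1, 15.6, 10.4 and 20.3 CPM against 35.1, 24.6, 45.4, 30.3 and 80.9 CPM, and Fcer1a, the IgE-binding receptor chain, 2.77, 2.73, 1.702, 1.24 and 2.09 CPM against 3.79, 2.98, 4.49, 4.09 and 8.902 CPM. None of these 3 genes overlapped, and mouse 77 was highest in each. Their log2 fold changes were 1.45 ± 0.48, 1.41 ± 0.47 and 1.195 ± 0.46 (SE), and 0.97, 1.05 and 0.86 without mouse 77, when 4 of the 11 had an unadjusted p under 0.05 and the median was 0.84. Isotype tumors had 13.2 ± 5.72 CPM of Cpa3 and 12.8 ± 5.75 CPM of Cma1 (SD, n = 5). The tryptase genes Tpsab1 and Tpsb2 are near copies of each other, and their values are uncertain.

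Among granulocyte and inflammatory genes, 5 of 15 neutrophil genes were higher and 1 lower, or 3 and 0 without mouse 77. Mmp8, the neutrophil collagenase, read 1.42, 0.613, 0.693, 1.7 and 2.003 CPM against 2.41, 2.003, 4.87, 3.65 and 7.53 CPM, and Clec4e, a receptor for mycobacterial glycolipid, 7.71, 9.15, 11.5, 7.42 and 8.35 CPM against 24.8, 17.8, 15.1, 16.7 and 17.9 CPM, with log2 fold changes of 1.69 ± 0.49 and 1.06 ± 0.38 (SE). Clec4e did not overlap, whereas for Mmp8 mouse 55 of the combination and mouse 73 of the mAb alone were level. Of 5 neutrophil-attracting chemokines 0 passed. In the IL-1 and IL-6 family list 5 of 21 genes were higher and 0 lower, 4 without overlap including a pair of secreted antagonists. Il1rn, the IL-1 receptor antagonist, read 23.8, 25.2, 46.6, 35.2 and 39.9 CPM against 77.6, 50.3, 97.9, 71.2 and 128 CPM, and Il18bp, which captures IL-18, 38.8, 39.2, 41.3, 23.8 and 24.03 CPM against 77.5, 48.4, 82.7, 53.4 and 169 CPM. Neither overlapped, with log2 fold changes of 1.32 ± 0.40 and 1.36 ± 0.42 (SE). Of 26 NF-κB genes 7 were higher and 2 lower, with Tnfaip3, an inhibitor of the pathway, at 0.48 ± 0.17 and Nfkb2, a subunit, at -0.38 ± 0.13 (SE). In Nfkb2 all 5 combination mice lay below all 5 others. Without mouse 77, 2 of the 26 were higher and 2 lower, and the median went from 0.15 to 0.05. Ptgs2 (COX-2), the inducible enzyme of prostaglandin synthesis, read 88.8, 155, 107, 163 and 145 CPM against 226, 212, 189.7, 320.4 and 180.5 CPM, without overlap and with mouse 77 the lowest of the combination, and differed by 0.77 ± 0.33 (SE). Of the 18 eicosanoid genes 6 were higher, among them the phospholipase Pla2g4a by 0.36 ± 0.13 (SE) without overlap, and 3 were lower, among them Ptgs1 (COX-1) by -0.51 ± 0.17 (SE). Without mouse 77 the eicosanoid counts were 2 and 1, and the median went from 0.47 to 0.12. Of 15 monocyte genes 6 were higher and 0 lower, and 3 passed without mouse 77. Ccl2, which attracts monocytes, read 169.7, 234, 302, 245 and 321 CPM against 367, 444, 325, 318 and 222 CPM with mouse 77 again the lowest of the combination, and Ly6c2, a surface protein of inflammatory monocytes, 21.6, 13.5, 14.2, 10.1 and 9.18 CPM against 20.8, 19.5, 27.5, 23.8 and 41.1 CPM. Their log2 fold changes were 0.399 ± 0.17 and 0.95 ± 0.30 (SE), and both groups overlapped. Of 17 lymphoid chemokine and receptor genes 2 were higher and 1 lower, and of 15 immediate early and heat shock genes 3 were higher and 1 lower, while without mouse 77 both lists had 0 in either direction.

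Nos2 uses arginine, and 4 of 11 genes of arginine transport and metabolism were higher and 0 lower at an unadjusted p of 0.05, with and without mouse 77. Slc7a2, an arginine transporter, read 3.59, 2.64, 5.17, 4.64 and 3.42 CPM with the mAb alone and 14, 5.86, 22.1, 13.6 and 38.2 CPM with the combination, a log2 fold change of 2.27 ± 0.58 (SE). Mouse 55 was lowest in the combination and still above mouse 56, the highest of the mAb alone. Ass1, which regenerates arginine, was 0.65 ± 0.25 (SE) higher with overlapping groups. Of 28 glycolysis and hypoxia genes 6 were higher and 0 lower, and 4 were higher without mouse 77. Hif1a, the oxygen-sensing transcription factor, read 133, 138, 90.5, 136 and 82.4 CPM against 178, 152, 185, 196 and 231 CPM and Hk2, a hexokinase, 109, 96.2, 116, 89.3 and 103 CPM against 157, 158, 148, 184 and 121 CPM. Both separated the groups, by 0.702 ± 0.23 and 0.58 ± 0.21 (SE), while the list median was 0.14.

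**Figure D3:**
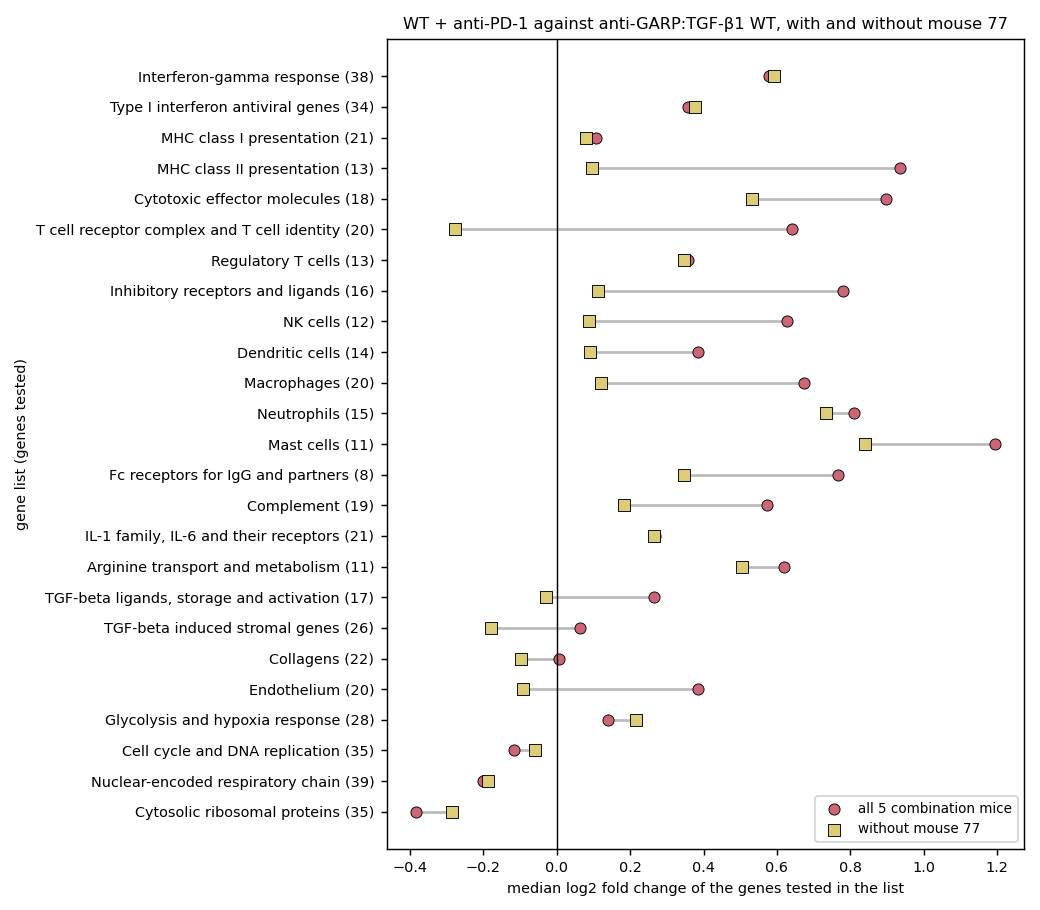
Median log2 fold change (WT + anti-PD-1 against anti-GARP:TGF-β1 WT) over the tested genes of 25 lists, with all 5 combination mice (circles) and without mouse 77 (squares); the number of genes tested is in brackets. The interferon lists keep their medians without mouse 77, whereas those of T cells, NK cells, macrophages, MHC class II and endothelium move to near 0 or below.

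In the TGF-β pathway Thbs1 and Acvrl1, a receptor of the TGF-β and BMP family, separated the groups. Of 17 genes of ligands, storage proteins and activators, 5 were higher and 1 lower, with a median of 0.27, against 2 and 1 with a median of -0.03 without mouse 77. Thbs1, whose product thrombospondin can release TGF-β1 from its latent form, read 49.5, 46.2, 36, 44.6 and 35.2 CPM against 78.9, 50.4, 123, 118 and 181 CPM. Its groups did not overlap, with mouse 55 lowest in the combination, and the log2 fold change was 1.38 ± 0.41 (SE), or 1.12 without mouse 77. Furin, the protease that cuts the TGF-β precursor, and Itgav, the shared chain of the integrins that activate it, were 0.33 ± 0.12 and 0.36 ± 0.15 (SE) higher and overlapped. Itgb3 and Nrros, which holds latent TGF-β1 on myeloid cells, were 0.596 ± 0.24 and 0.54 ± 0.24 (SE) higher, and 0.18 and 0.08 without mouse 77. Ltbp4, a matrix storage protein, was lower, at -0.41 ± 0.16 (SE). Of 20 receptors, Smads and inhibitors 5 were higher and 0 lower, and 2 without mouse 77, with Acvrl1 at 0.54 ± 0.17 (SE), or 0.24 without mouse 77. The stromal genes that TGF-β induces had 2 of 26 higher, Inhba by 0.79 ± 0.25 and the sparse Cnn1 by 3.499 ± 1.16 (SE), and 1 higher without mouse 77. Of 22 collagen-related genes 0 were higher and 3 lower, Col6a1, Col16a1 and Col6a2, by -0.63 ± 0.28, -0.29 ± 0.14 and -0.697 ± 0.34 (SE), beside 13% of all genes, and without mouse 77 the count was 2 higher and 0 lower. Of 20 matrix protease and inhibitor genes 2 were higher and 3 lower, or 1 and 0 without mouse 77. Of 20 endothelial genes 4 were higher, with Pecam1 at 1.16 ± 0.35 (SE), and 0 without mouse 77, when 1 was lower.

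Genes of respiration, ribosomes and the cell cycle were the lists with the largest shares of lower genes, with all 5 combination mice. Of 39 nuclear-encoded respiratory chain genes 15 were lower and 0 higher, with a median of -0.200, and 12 were lower without mouse 77, with a median of -0.19. Within libraries 41 to 60, however, 0 of the 39 were lower at an unadjusted p of 0.05 in edgeR, with a median of -0.037. Within libraries 61 to 80, 11 were lower at an adjusted p of 0.05 in edgeR, with a median of -0.391. Atp5g1, part of ATP synthase, read 80.2, 80.1, 97.4, 92.4 and 122 CPM against 73.8, 68.8, 71.7, 68.2 and 53.9 CPM, and Ndufv1, part of complex I, 129.9, 122, 138, 131 and 152 CPM against 107, 112, 97.97, 105 and 81.6 CPM. Both had all 5 combination mice below all 5 others, by -0.49 ± 0.14 and -0.41 ± 0.12 (SE), with mouse 77 the lowest. Of 35 cytosolic ribosomal protein genes 18 were lower and 0 higher, 0 without overlap, with a median of -0.38, and 5 passed without mouse 77. Of 35 cell cycle genes 14 were lower and 0 higher, and 5 without mouse 77, with the mitotic genes Birc5 (survivin) and Cenpa below all others in 5 of 5 mice, by -0.42 ± 0.15 and -0.25 ± 0.10 (SE). Of 18 MYC and nucleolar genes 6 were lower, with Myc at -0.35 ± 0.14 (SE), and without mouse 77 the count was 1 higher and 0 lower. Of 15 genes of the unfolded protein and integrated stress responses 4 were lower, led by Herpud1, which clears proteins from the endoplasmic reticulum, at -0.396 ± 0.13 (SE), and 2 were lower without mouse 77. Of 25 proteasome genes 1 was higher and 5 were lower, or 1 and 2 without mouse 77. Mitochondrially encoded transcripts had 1 of 10 lower, mt-Nd4, at -0.33 ± 0.15 (SE), and 0 without mouse 77.

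The 10 higher genes with the smallest p among those that did not overlap and have a gene symbol were Azi2, Nrbf2, Rsad2, Ahcyl2, Crem, Slc7a2, Ptpre, Rnf128, Serpinb1b and Zufsp. All had an adjusted p of 0.0963 in edgeR. Azi2, an adaptor of the kinase TBK1 in interferon induction, read 61.4, 69.6, 60.4, 63.2 and 57.7 CPM against 72.7, 77.9, 71.97, 71.1 and 86.7 CPM, a small but even difference of 0.28 ± 0.067 (SE). Nrbf2, an autophagy factor, differed by 0.75 ± 0.18, Ahcyl2 by 0.51 ± 0.13, and Crem, a regulator of cyclic AMP-responsive genes, by 0.58 ± 0.15 (SE). Ptpre, a tyrosine phosphatase, differed by 0.64 ± 0.16, Rnf128 (GRAIL), a ubiquitin ligase of anergic T cells, by 1.11 ± 0.28, and Zufsp, a deubiquitinase, by 0.53 ± 0.14 (SE). Serpinb1b, a protease inhibitor gene, was sparse, with 0.1497, 0.377, 0.378, 0.155 and 0.0834 CPM against 1.02, 1.03, 1.01, 0.804 and 1.31 CPM and a log2 fold change of 2.06 ± 0.54 (SE).

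The 10 lower genes were Acy3, Tgfb1i1, Tnfaip8l1, Tmem63a, Crip2, Gas2, Gtf2h4, Lrwd1, Trp53 and Fdxr, also with an adjusted p of 0.0963 in edgeR. Acy3, an aminoacylase, had the smallest unadjusted p of these 20 genes, 3.07e-05, and read 10.6, 10.9, 12.9, 12.7 and 13.8 CPM against 7.88, 8.01, 8.22, 7.82 and 5.42 CPM. Mouse 77 was the lowest, and the log2 fold change was -0.702 ± 0.15 (SE), or -0.605 without it. Tgfb1i1 (Hic-5), a focal adhesion protein that TGF-β1 induces, read 26.3, 25.6, 25.1, 29.1 and 39.05 CPM against 21.5, 20.5, 22.9, 24.4 and 18.1 CPM, a difference of -0.43 ± 0.10 (SE). Trp53, the gene of the tumor suppressor p53, read 177, 168, 196, 200.1 and 218 CPM against 154, 139.7, 155, 155 and 101 CPM, and Fdxr, a mitochondrial reductase and known p53 target, 21.3, 15.9, 19.3, 17.5 and 23.4 CPM against 12.3, 13.8, 13.1, 13.7 and 12.4 CPM. They differed by -0.44 ± 0.11 and -0.57 ± 0.14 (SE). Tnfaip8l1 differed by -0.57 ± 0.14, Tmem63a, an ion channel, by -0.33 ± 0.077, and Crip2, a LIM-domain protein, by -0.53 ± 0.12 (SE). Gas2, which binds the cytoskeleton, differed by -0.56 ± 0.14, Gtf2h4, a subunit of the repair and transcription factor TFIIH, by -0.43 ± 0.10, and Lrwd1, which binds the origin recognition complex, by -0.41 ± 0.10 (SE).

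Markers of tissues next to the tumor were examined because fragments can hold them. Of 14 B cell and plasma cell genes 0 passed, with a median of -0.87, and Cd79a, a chain of the B cell receptor, read 9.13, 2.03, 0.946, 1.08 and 1.001 CPM against 2.26, 0, 0.822, 0.292 and 1.12 CPM, with mouse 42 the highest and mouse 55 at 0. The epithelial genes Krt8 and Epcam were almost absent in libraries 41 to 60 and present in libraries 61 to 80. Krt8 read 0.374, 0.0943, 0.315, 9.43 and 7.76 CPM against 0.219, 0.257, 16.4, 4.24 and 60.4 CPM, so that mice 65, 73, 64, 69 and 77 were high in both groups. Cdx2, a transcription factor of intestinal epithelium, was read in all 10 mice, at 4.04, 4.57, 5.74, 4.41 and 5.76 CPM against 4.23, 3.595, 2.47, 3.799 and 1.62 CPM. Its log2 fold change was -0.64 ± 0.23 (SE). Mouse 77 had the highest Krt8 and the lowest Cdx2 of the 10 mice. Which cells of the fragments held Krt8 and Epcam was not tested. Of the 12 keratin and junction genes 2 were higher and 1 lower, and 0 and 1 without mouse 77. Of 11 skeletal muscle genes 1 was higher and 1 lower, of 16 adipocyte genes 1 was higher, of 10 skin genes 1 was higher and 1 lower, and of 7 nerve genes 2 were higher. Without mouse 77 the muscle, adipocyte and skin lists had 0 in either direction, and the nerve list 1 higher. Red cell and platelet genes (9 tested) and eosinophil genes (2 tested) had 0 past an unadjusted p of 0.05. Within libraries 41 to 60, however, 5 of the 9 red cell and platelet genes were higher, with a median of 2.14, against a median of -0.92 within libraries 61 to 80, and 6 of the 9 had a smaller log2 fold change in the latter at an unadjusted p of 0.05. The part of these tissues in the other results was not tested.

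More genes passed in libraries 61 to 80 than in libraries 41 to 60, although no gene passed the test of the difference between them. Within libraries 61 to 80 (3 combination mice, 2 on the mAb alone), 1026 genes (6.95%) were higher and 1052 (7.13%) lower at an adjusted p of 0.05 in edgeR. Within libraries 41 to 60 (2 and 3 mice), 0% of genes passed, with 156 higher and 128 lower at an unadjusted p of 0.05. A test of the difference between both sets called no gene at an adjusted p of 0.05 (0%), while 1331 genes (9.02%) had a larger and 995 (6.74%) a smaller log2 fold change in libraries 61 to 80 at an unadjusted p of 0.05. The interferon-γ response median was 0.35 within libraries 41 to 60 and 0.89 within libraries 61 to 80. The median of effector molecules was 0.45 and 1.41, and that of mast cell genes 0.57 and 1.64. T cell genes had medians of opposite sign, at -0.92 and 1.99. MHC class II genes did as well, at -0.44 and 1.78. So did regulatory T cell genes, at -0.29 and 0.95, macrophage genes, at -0.101 and 1.14, NK cell genes, at -0.37 and 1.53, and dendritic cell genes, at -0.34 and 1.200. Medians also had opposite signs for complement genes, at -0.03 and 1.13, endothelial genes, at -0.295 and 0.58, and adipocyte genes, at -0.645 and 1.43. The Fc receptor medians were 0.05 and 1.21. The type I interferon medians were 0.19 and 0.48. In the test of the difference, 17 of 20 T cell identity genes, 10 of 13 MHC class II genes and 9 of 12 NK cell genes had a larger log2 fold change in libraries 61 to 80 at an unadjusted p of 0.05. Of 35 ribosomal protein genes 34 had a smaller one, whereas for interferon-γ response genes 3 of 38 had a larger and 0 a smaller one. Gzmb differed by 0.77 and 1.99, Nos2 by 1.52 and 2.14, and Rsad2 by 0.61 and 1.78 on the log2 scale, in the same direction in both sets. Within libraries 61 to 80, 35 of 35 ribosomal protein genes were lower at an adjusted p of 0.05 in edgeR, with a median of -0.795, against 0.07 within libraries 41 to 60. Mouse 77 is 1 of the 3 combination mice of the second set.

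**Figure D4:**
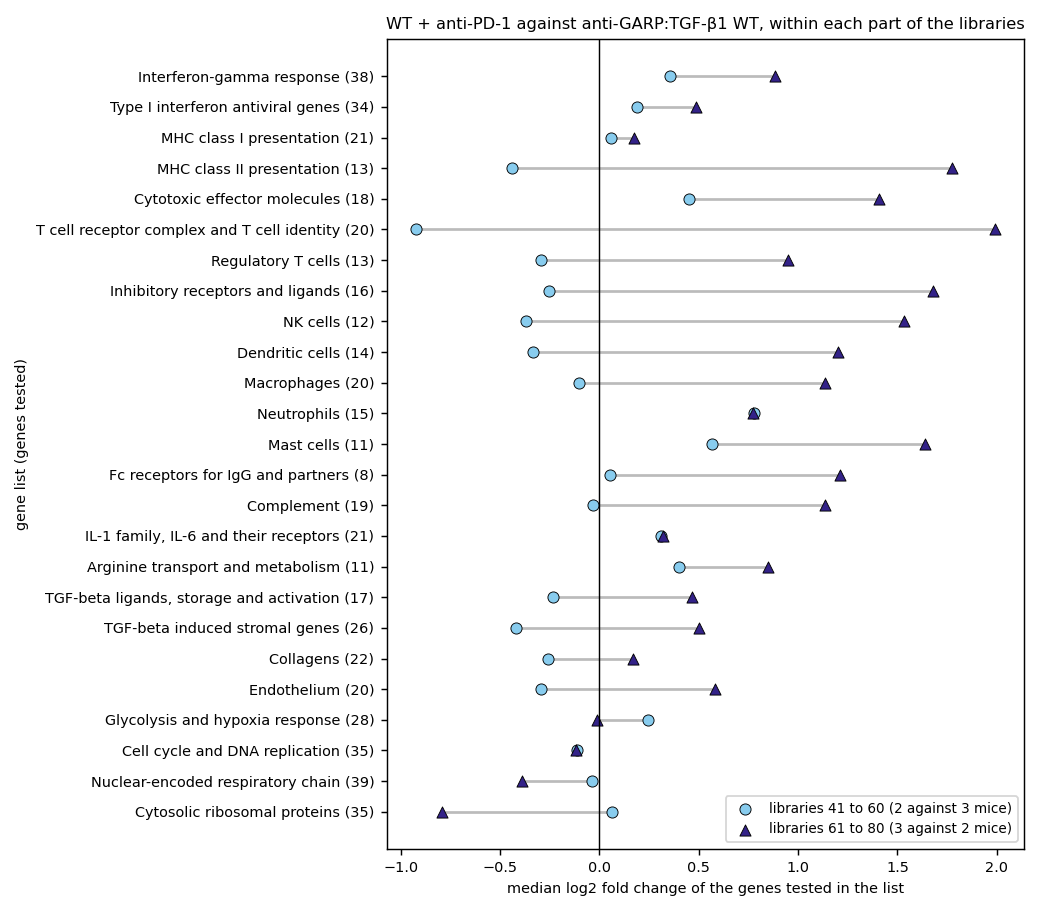
Median log2 fold change (WT + anti-PD-1 against anti-GARP:TGF-β1 WT) over the tested genes of 25 lists, within libraries 41 to 60 (circles) and within libraries 61 to 80 (triangles), with genes tested in brackets. Interferon, effector, mast cell and neutrophil lists lie above 0 in both sets, whereas T cell, NK cell and MHC class II lists lie below 0 in the first and above 0 in the second.

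The same anti-PD-1 was also given alone, here set against the isotype control, and added to the Fc-dead form of the mAb (FcD) and to a mAb against TGF-β (anti-TGFb), with other mice. The labels do not say that mice on anti-PD-1 alone also received the isotype control. The test of the difference between adding anti-PD-1 to the mAb and giving it alone called no gene at an adjusted p of 0.05 in edgeR (0%), with 635 genes (4.3%) higher and 656 (4.44%) lower at an unadjusted p of 0.05. The test against adding it to the Fc-dead form also called none (0%), with 99 genes (0.671%) higher and 165 (1.12%) lower. Gzmb differed by 0.25 ± 0.40 on the log2 scale with anti-PD-1 alone against the isotype control, by 1.52 ± 0.40 (SE) when added to the mAb and by 1.28 ± 0.40 when added to the Fc-dead form. For Cd274 the values were 0.33 ± 0.41, 1.498 ± 0.41 (SE) and 1.44 ± 0.41, and for Rsad2 0.11 ± 0.34, 1.43 ± 0.34 (SE) and 0.84 ± 0.34. The difference of differences against anti-PD-1 alone was 1.27 ± 0.56 for Gzmb, 1.17 ± 0.58 for Cd274 and 1.31 ± 0.48 for Rsad2 (SE), with edgeR's adjusted p at 0.483 for each. Pdcd1 and Cd3e differed by -1.303 ± 0.63 and -0.900 ± 0.58 with anti-PD-1 alone. The interferon-γ response median was 0.11 with anti-PD-1 alone, 0.58 with the mAb and 0.76 with the Fc-dead form. For effector molecules the medians were -0.12, 0.897 and 0.73, and for mast cell genes 0.75, 1.195 and 1.34. When anti-PD-1 was added to anti-TGFb the medians were 0.36 for interferon-γ response, 0.14 for effector, 0.22 for mast cell and -0.16 for T cell genes, and their difference from those with the mAb was not tested. Of the 38 interferon-γ response genes, 2 had a higher and 0 a lower log2 fold change than with anti-PD-1 alone at an unadjusted p of 0.05, and of the 18 effector genes 3 and 0. Of the 34 type I interferon genes 8 had a higher and 0 a lower log2 fold change than with anti-PD-1 alone. Of the 35 ribosomal protein genes 12 had a lower one, and of the 39 respiratory chain genes 7. Of the 11 skeletal muscle genes 8 had a lower one, and 10 of the 11 were higher at an unadjusted p of 0.05 with anti-PD-1 alone against the isotype control, with a median of 2.31. The part of this muscle signal in the other differences between the settings was not tested.

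**Figure D5:**
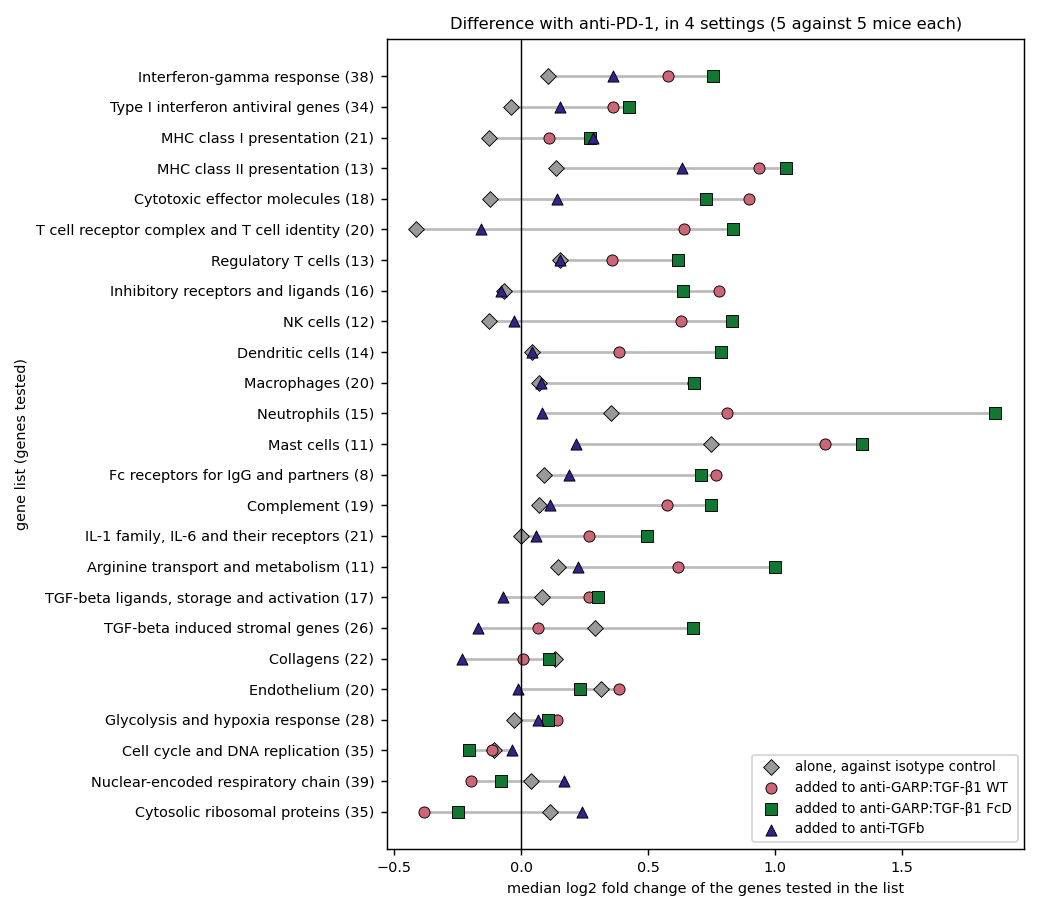
Median log2 fold change with anti-PD-1 over the tested genes of 25 lists, for anti-PD-1 alone against isotype control (diamonds) and for anti-PD-1 added to anti-GARP:TGF-β1 WT (circles), to anti-GARP:TGF-β1 FcD (squares) and to anti-TGFb (triangles), 5 against 5 mice each. Anti-PD-1 alone lies nearest to 0 for the interferon, effector and macrophage lists, and the WT and FcD settings lie to its right.

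The study's cytokine signatures, human genes induced by a cytokine in cultured cells and matched here to mouse genes by symbol, were spread more thinly. Of 206 tested IFNγ signature genes 59 were higher and 24 lower at an unadjusted p of 0.05, and 18 lay above without overlap, with a median of 0.26. Of 277 TNFα genes 81 were higher and 13 lower, with a median of 0.29, and of 268 IL-1β genes 73 were higher and 21 lower, with a median of 0.19. Of 113 TGF-β1 genes 31 were higher and 8 lower, with a median of 0.18, and of the 40 found in CD4 T cells 12 were higher and 4 lower. Of all genes tested, 16.6% were higher and 13% lower. The share of higher genes was above this and similar for IFNγ, TNFα, IL-1β and TGF-β1, so the counts do not set one cytokine apart. Without mouse 77 the medians were 0.16, 0.17, 0.14 and 0.11 for IFNγ, TNFα, IL-1β and TGF-β1. In the same order, 37, 45, 43 and 16 genes were then higher and 17, 11, 16 and 4 lower at an unadjusted p of 0.05. Within libraries 41 to 60 the medians were 0.04, 0.05, 0.06 and -0.08.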

How the data were processed

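RNA of CT26 tumor fragments was sequenced as paired-end reads from stranded mRNA libraries. The authors aligned the reads to GRCm38 with STAR and counted them per gene with HTSeq, and the deposited table holds these raw counts without normalisation. The submitters' processing notes name STAR 2.5.3a, SAMtools 1.6 and HTSeq 0.9.1. Whether counting used strand is not given in the sources used here, so reads of overlapping or antisense genes cannot be told apart, and near-identical copies are uncertain. The table names genes by symbol, of which 27 entries under 25 names had been turned into dates, with 2 names in more than 1 entry, and none of these is reported.

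Groups were taken from the treatment tags, 5 mice each, with 1 tumor fragment per mouse. Totals ran from 11931730 to 20680548 counts over the 40 mice (median 14030511). Counts were tested in R 4.3.3 with edgeR 4.0.16 (TMM normalisation, filterByExpr by group, robust quasi-likelihood test, 2-sided) in 1 model of all 40 mice without covariates, and p-values were adjusted by Benjamini-Hochberg over all genes tested. Values within library sets came from 1 model of group by set, which assumes the same spread in all groups. Standard errors were derived from the fold change and the F statistic. Levels are TMM-normalised CPM, and they compare mice within a gene, not genes with each other. The script was tested on simulated data with known fold changes. Alternatives were DESeq2 1.42.0 (size factors or Wald test), no filter on low counts, the library set as a covariate, a model of the compared groups alone, each library set alone and each mouse left out.

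The members and gene lists were chosen with earlier results of these data known, and the cytokine signatures are the study's own, from cultured human cells, so the lists are described by counts and medians only. Genes are named when they were among the 10 higher or 10 lower genes with the smallest p that did not overlap between groups and had a gene symbol other than a predicted-gene name, were effector, checkpoint or T cell genes fixed as key genes, were members of a described list with a small p or needed to say what the list holds, or were the only gene called by a fit. Gene positions come from GENCODE M21 and promoter windows from RefSeq, both on GRCm38.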

Additional observations from a re-analysis of the deposited data

Results flagged for a closer look

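In 16 of 214 checks, each of 1 gene or total over the 5 mice of a group, 1 mouse lay far from the other 4 by Dixon's criterion on log2 CPM (0.1 CPM added). Chance flags about 1 in 20 groups, and the genes are not independent. In 9 of the 16, the mouse was 77 of the combination, the tumor that stood apart in the principal component. It had the highest Zufsp of its group, at 29.7 CPM, and Acvrl1, at 125 CPM, and the lowest Acy3 at 5.42, Crip2 at 59.0, Gtf2h4 at 19.9, Trp53 at 101, Atp5g1 at 53.9, Col16a1 at 104.5 and Nfkb2 at 186 CPM. On the mAb alone, mouse 73 had the lowest Ifng at 0.751 CPM, the highest Tgfb1 at 109 and the lowest Erap1 at 101.5 CPM. Mouse 42 had the highest Cd4 at 5.09 CPM and the highest Mx1 at 31.4 CPM of that group. Mouse 56 had the highest Pdcd1lg2 at 7.63 CPM, and mouse 65 the lowest Icos at 0.232 CPM. The part of these single mice in the fold changes was measured by leaving each out, and what set them apart was not tested.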

How the results depend on the processing

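The count of 0 genes at an adjusted p of 0.05 for the combination against the mAb alone was the same with DESeq2's size factors, without the filter on low counts (31326 genes), with the library set as a covariate, in a model of the 2 groups alone (13699 genes) and within libraries 41 to 60. It was 2078 within libraries 61 to 80 and 619 with DESeq2's Wald test. Leaving out 1 mouse at a time gave from 0 to 1707 genes, with 1707 without mouse 55 of the combination and 0 without each other mouse. Of the 2078 and the 1707 genes, 1158 were shared, 55.7% and 67.8% of each, and of the 619 and the 1707, 580 were shared. The cause was not tested. The difference of the anti-PD-1 effect between mice on the WT mAb and mice without it had 1 gene with DESeq2's Wald test and 0 otherwise. That gene, Myh1 of skeletal muscle, had 0 counts in 5 isotype mice, 0 to 241 with anti-PD-1 (3 mice at 0), 0 to 16 with the mAb alone (4 at 0) and 0 to 1 with the combination (3 at 0).

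No paired analysis was possible because the labels give no replicate numbers shared between the groups. Of 106 genes examined singly, 16 changed sign within libraries 41 to 60, 5 without mouse 77 and 0 under every other alternative, where the model of the 2 groups alone tested 104 of the 106 (not Cnn1 or Icos). Within libraries 41 to 60 the log2 fold change was -0.044 for Prf1, -0.88 for Lrrc32, -0.23 for Tgfb1, -0.61 for Foxp3, -1.65 for Pdcd1, -1.35 for Cd3e, -0.55 for Cd4, -1.17 for Cd8a, -0.014 for Adgre1, -0.54 for H2-Aa, -0.29 for Ikzf2, -0.003 for Itgb3, -0.016 for Krt8, -0.28 for Nrros, -0.14 for Pecam1 and -0.059 for Tnfsf10. Over the mice left out in turn it ran from -0.21 to 0.67 for Lrrc32, -0.084 to 0.35 for Tgfb1, -0.83 to 0.69 for Pdcd1, -0.59 to 0.75 for Cd3e and -0.34 to 0.96 for Cd8a, with each lowest value without mouse 77. Of the 106, 61 passed the adjusted threshold without mouse 55, 49 within libraries 61 to 80 and 48 with DESeq2's Wald test.

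Ifng, Ctla4, Icos and Foxp3 were read at a few CPM, where counting error widens the spread. With 5 mice a group and 1 tumor that stood apart, a p above the threshold does not show that groups were alike.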
